A study of Mus musculus with 8 samples.

Results

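Interferon-stimulated genes are the genes that cells switch on after interferon, the secreted signal of virus infection, binds its receptor. A list of 41 such genes was followed in spleen cells of HMGA1a transgenic mice and of control littermates. Of the 41, 37 had a probe set annotated to that symbol alone, out of 18193 genes with such a probe set. Of these, 36 were bright enough to be tested, out of 11189 genes tested. Isg15, Gbp4, Oas1g and Ifi44 had no such probe set and have no value here. Mx2 fell below the brightness filter, with signals from 7.73 to 22.5 over the 8 arrays.

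All mice were male C57/BL6, and the cells were splenocytes, the mixed cells of the spleen. Wild type (WT) and HMGA1a transgenic (TG) mice were sampled at 2 months, before tumours, and at 12 months, when by the submitters' account lymphoid tumours were well established in TG mice. Each of the 4 groups held 2 arrays, labelled biologic replicate 1 and 2, and no treatment was given. HMGA1a is a chromatin protein that binds AT-rich DNA. The promoter and cell type driving the transgene, and whether an array held 1 mouse or a pool, are not given in the sources used here, and no probe set was annotated to Hmga1 alone, so the transgene was not checked. P-values measure the spread between these 2 arrays a group.

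Type I and type III interferons signal through receptors and JAK kinases to a complex that holds STAT2 and IRF9 and binds a DNA element called the interferon-stimulated response element (ISRE). Type II interferon, made mainly by T cells and NK cells, acts through a second DNA element, the gamma-activated site (GAS). Spleen cells of uninfected mice keep a low, steady level of many of these transcripts through constant weak signalling.

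The promoters of the list carried these DNA elements often, and those of the genes whose levels the results below turn on are shown first. RefSeq windows on GRCm38.p6, 250 letters before to 50 after the transcription start, were at hand for 31 of the 41 genes. The ISRE was searched as GAAA, any 2 letters, then GAAA again, and the GAS as TTCNNNGAA, where N is any letter. Both strands were read, and matches of the 2 patterns may overlap. ISRE letters stood in a window of 18 of 31 listed genes (58.1%) and of 3.99% of all 27025 genes in the table. GAS letters stood in a window of 11 of 31 listed genes (35.5%) and of 9.55% of all genes. A window of 5 listed genes held both. The 28 ISRE matches began between position -222 and position 33 from the start site. A match is a run of letters and does not show that a factor bound there.

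Oas1a, Ifit3, Ifit1 and Bst2 were lower at 12 months in both genotypes, whereas Gbp2, Gbp7, Igtp and Plscr1 were higher in TG than in WT mice at 12 months in mean level. Their windows lie at chr5:120907476-120907775 on the minus strand (Oas1a), chr19:34583279-34583578 on the plus strand (Ifit3), chr19:34640639-34640938 on the plus strand (Ifit1), chr8:71537423-71537722 on the minus strand (Bst2), chr3:142620413-142620712 on the plus strand (Gbp2), chr3:142530086-142530385 on the plus strand (Gbp7), chr11:58199306-58199605 on the plus strand (Igtp) and chr9:92249944-92250243 on the plus strand (Plscr1). The sequences run 5′ to 3′ along the gene, and capitals mark letters that match the ISRE or the GAS pattern on either strand.
Oas1a: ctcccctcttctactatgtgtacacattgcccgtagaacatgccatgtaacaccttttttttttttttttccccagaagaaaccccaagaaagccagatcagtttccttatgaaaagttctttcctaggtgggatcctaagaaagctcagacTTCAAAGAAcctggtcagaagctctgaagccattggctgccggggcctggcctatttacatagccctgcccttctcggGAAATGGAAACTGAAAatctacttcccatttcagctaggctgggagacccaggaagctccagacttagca
Ifit3: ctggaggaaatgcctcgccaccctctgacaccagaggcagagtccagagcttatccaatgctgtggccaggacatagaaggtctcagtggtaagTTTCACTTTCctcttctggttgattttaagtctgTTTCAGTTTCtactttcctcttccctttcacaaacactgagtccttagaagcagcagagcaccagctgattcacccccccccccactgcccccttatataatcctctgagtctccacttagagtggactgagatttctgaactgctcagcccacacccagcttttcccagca
Ifit1: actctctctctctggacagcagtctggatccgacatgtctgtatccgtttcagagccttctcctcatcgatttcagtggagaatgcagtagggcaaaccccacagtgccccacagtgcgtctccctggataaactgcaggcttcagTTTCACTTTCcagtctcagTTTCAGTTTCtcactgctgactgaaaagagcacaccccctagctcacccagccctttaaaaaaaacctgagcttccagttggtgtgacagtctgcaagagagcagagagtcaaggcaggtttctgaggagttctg
Bst2: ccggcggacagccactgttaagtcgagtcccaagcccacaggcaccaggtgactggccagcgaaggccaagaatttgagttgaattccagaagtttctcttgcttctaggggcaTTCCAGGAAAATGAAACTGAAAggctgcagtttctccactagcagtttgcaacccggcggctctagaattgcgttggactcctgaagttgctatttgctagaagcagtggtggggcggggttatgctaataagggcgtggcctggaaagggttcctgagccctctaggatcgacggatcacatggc
Gbp2: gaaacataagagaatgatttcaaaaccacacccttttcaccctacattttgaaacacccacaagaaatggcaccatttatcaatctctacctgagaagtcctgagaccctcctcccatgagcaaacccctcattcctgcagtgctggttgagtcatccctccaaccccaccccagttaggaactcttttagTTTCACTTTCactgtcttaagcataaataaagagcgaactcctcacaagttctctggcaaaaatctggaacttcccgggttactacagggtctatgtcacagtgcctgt
Gbp7: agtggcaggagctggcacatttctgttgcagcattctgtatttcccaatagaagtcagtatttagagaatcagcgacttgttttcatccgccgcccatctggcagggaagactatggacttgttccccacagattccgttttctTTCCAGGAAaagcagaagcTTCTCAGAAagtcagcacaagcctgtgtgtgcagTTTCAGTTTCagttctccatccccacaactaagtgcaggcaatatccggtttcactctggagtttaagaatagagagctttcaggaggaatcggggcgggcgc
Igtp: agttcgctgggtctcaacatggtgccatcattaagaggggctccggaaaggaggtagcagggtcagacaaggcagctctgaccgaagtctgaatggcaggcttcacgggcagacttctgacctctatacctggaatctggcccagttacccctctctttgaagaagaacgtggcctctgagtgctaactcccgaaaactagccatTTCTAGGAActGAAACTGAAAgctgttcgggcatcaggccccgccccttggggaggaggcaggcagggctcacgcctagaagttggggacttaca
Plscr1: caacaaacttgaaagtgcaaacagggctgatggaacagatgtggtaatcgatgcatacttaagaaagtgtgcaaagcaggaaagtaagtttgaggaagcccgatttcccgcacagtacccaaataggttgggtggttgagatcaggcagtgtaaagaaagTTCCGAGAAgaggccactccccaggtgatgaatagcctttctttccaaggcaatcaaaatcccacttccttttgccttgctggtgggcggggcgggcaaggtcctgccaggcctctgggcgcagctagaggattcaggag

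The Oas1a window held 2 overlapping ISRE matches, beginning at -20 and -14, and the Bst2 window 2, at -130 and -124. Ifit3 had matches at -156 and -122, and Ifit1 at -104 and -85. The GTPase genes Gbp2, Gbp7 and Igtp had 1 ISRE match each, at -59, -53 and -34. The Plscr1 window had no ISRE letters and 1 GAS match. ISRE letters therefore occurred both in genes lower at 12 months in both genotypes and in these GTPase genes, which were not lower in both. Gbp2 was lower in WT mice only (-0.03, log2). Another GTPase gene, Irgm2, had 1 ISRE match and was lower in both in mean level (-0.13 in WT and -0.05 in TG mice).

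The arrays themselves differed in what else they contained. The deposited signals had a trimmed mean of 150.001 on every array, and their medians ran from 44.9 to 49.5. The array labelled WT 2 months replicate 1 stood apart: the summed signal of 7 exocrine pancreas markers was 15140 there and between 489 and 843 on the other arrays. B cell and T cell markers, which define splenocytes, were present on all arrays, with summed signals of 12246 to 25089 (9 B cell markers) and 3907 to 10251 (9 T cell markers). Counts and medians that rest on WT mice at 2 months are given below with and without replicate 1 of that group, as are the values of most genes described. In bulk spleen RNA, fewer cells of a type and less RNA per cell cannot be told apart.

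The clearest pattern in the list was with age. In WT mice 32 of the 36 tested genes had a lower mean level at 12 than at 2 months, and in TG mice 27 of 36 did, whereas 48.6% and 56.3% of all genes tested did. The median log2 difference of the 36 genes was -0.20 in WT mice and -0.27 in TG mice, against 0.01 and -0.04 over all genes. In both genotypes together, 27 of the 36 (75.0%) were lower at 12 months, against 28.1% of all genes. The age comparisons of the 2 genotypes share no array. In TG mice 12 months was also the age at which tumours were established by the submitters' account. Age and tumours therefore cannot be told apart in the TG comparison or in counts over both genotypes. No member passed the test in either comparison (limma with Benjamini-Hochberg adjustment over 11189 genes, threshold 0.05), where 0% of all genes passed in WT mice and 0.00894% in TG mice.

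**Figure D1:**
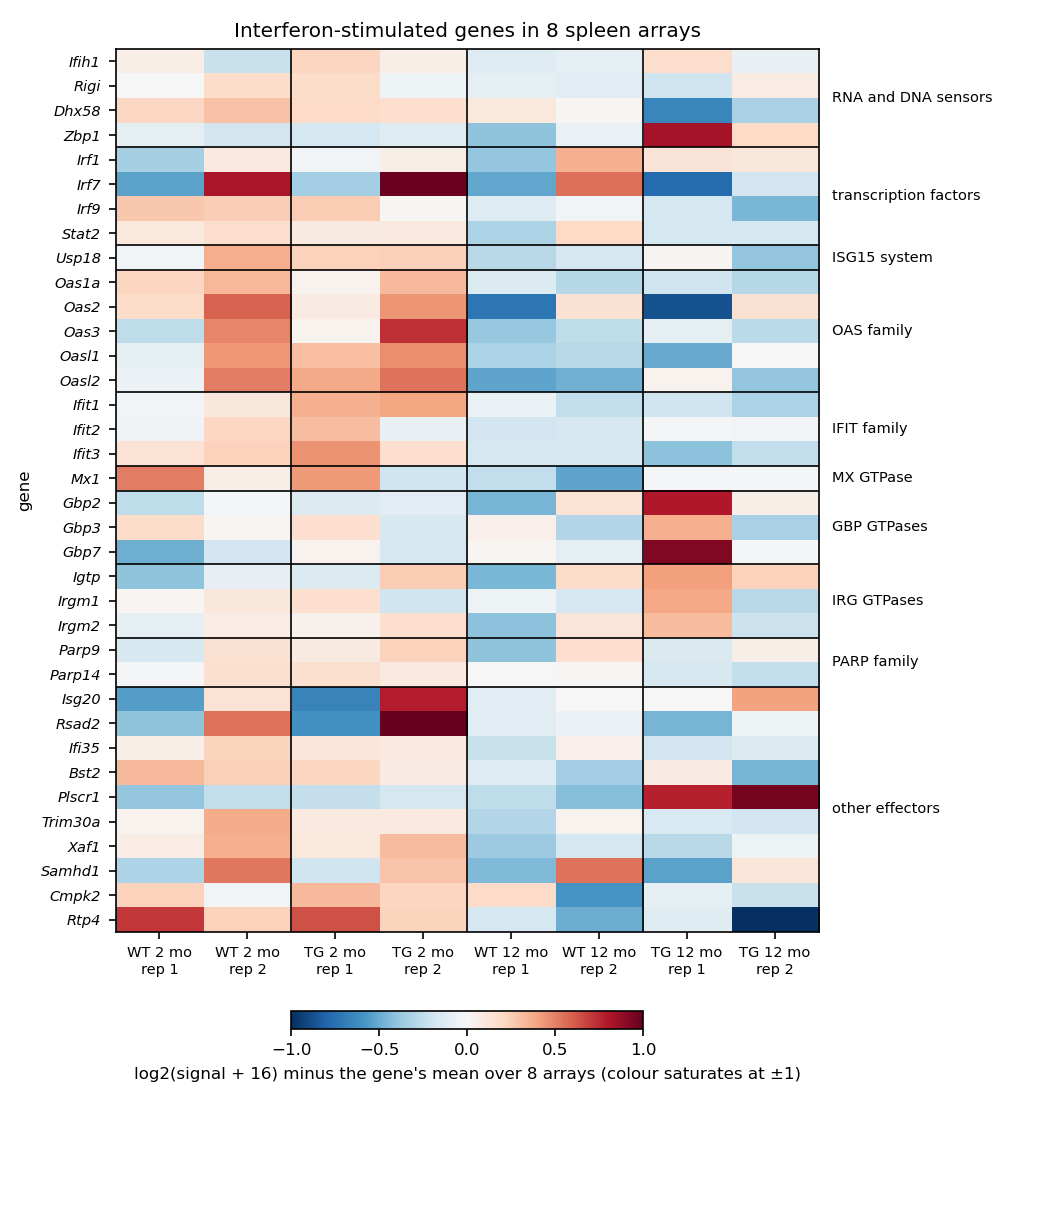
Level of each of the 36 tested genes (rows, grouped by role) on each of the 8 arrays (columns, by genotype, age in months and replicate), as log2(signal + 16) minus the gene's own mean, with red above and blue below that mean. The OAS and IFIT genes are mostly red at 2 months and blue at 12 months, and the GBP and IRG genes are red on the TG 12 months replicate 1 array.

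The OAS family, enzymes that sense double-stranded RNA and start RNA decay, and its relatives were among the genes with this pattern. All 5 measured OAS genes were lower at 12 months in both genotypes, with median log2 differences of -0.49 in WT and -0.62 in TG mice. Oas1a had signals of 452 and 492 in WT and 397 and 488 in TG mice at 2 months, and of 350 and 315 in WT and 336 and 315 in TG mice at 12 months. Every 12-month array thus lay below every 2-month array. The Oas1a difference was -0.49 ± 0.18 (log2, SE, n = 2 against 2) in WT and -0.42 ± 0.18 in TG mice, with limma adjusted p of 1.00 in both.

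Oasl2, an OAS-like protein, had signals of 175 and 266 in WT and 242 and 272 in TG mice at 2 months, and of 122 and 126 in WT and 187 and 135 in TG mice at 12 months. The groups did not overlap within either genotype. Its difference was -0.73 ± 0.25 in WT and -0.64 ± 0.25 in TG mice. Oas2 had signals of 153 and 207 in WT and 141 and 186 in TG mice at 2 months, and of 73.9 and 148 in WT and 65.2 and 149 in TG mice at 12 months, so that replicate 1 was the lower array in all 4 groups. Oas3 fitted differences were -0.43 and -0.57, and those of Oasl1 were -0.47 and -0.64, in WT and TG mice.

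The IFIT proteins bind foreign RNA lacking the host's cap marks and block its translation. All 3 measured IFIT genes were lower at 12 months in both genotypes, with medians of -0.26 in WT and -0.63 in TG mice. Ifit3 had signals of 293 and 312 in WT and 366 and 298 in TG mice at 2 months, and of 231 and 234 in WT and 194 and 220 in TG mice at 12 months. Every older array was below every younger array. The difference was -0.36 ± 0.18 in WT and -0.64 ± 0.18 in TG mice, with limma adjusted p of 1.00 and 0.811.

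Ifit1 had signals of 160 and 178 in WT and 213 and 219 in TG mice at 2 months, and of 155 and 135 in WT and 140 and 128 in TG mice at 12 months. The ages did not overlap in either genotype, although 1 of the WT arrays at 12 months was close to a WT array at 2 months. The difference was -0.19 ± 0.18 in WT and -0.63 ± 0.18 in TG mice. The difference between these 2 effects, -0.44 ± 0.26, did not pass the test (limma adjusted p = 1.00).

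Among the other effectors, Rtp4, a chaperone of receptor proteins that interferon induces, had the most negative age difference of the list in each genotype, in WT mice only with the WT 2 months replicate 1 array included. Its signals were 690 and 492 in WT and 656 and 491 in TG mice at 2 months, and 368 and 291 in WT and 382 and 201 in TG mice at 12 months. It was 1.74-fold lower at 12 months in WT and 1.98-fold lower in TG mice on the log2(signal + 16) scale (differences of -0.80 ± 0.32 and -0.99 ± 0.32, limma adjusted p of 1.00 and 0.963). Xaf1, a protein that promotes cell death, had signals of 390 and 478 in WT and 400 and 466 in TG mice at 2 months, and of 285 and 326 in WT and 303 and 357 in TG mice at 12 months. Here too the 2 ages did not overlap, and the Xaf1 difference was -0.48 ± 0.19 in WT and -0.37 ± 0.19 in TG mice. Bst2, which tethers budding virus particles to the cell surface, had signals of 319 to 380 at 2 months and of 213 to 318 at 12 months.

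**Figure D2:**
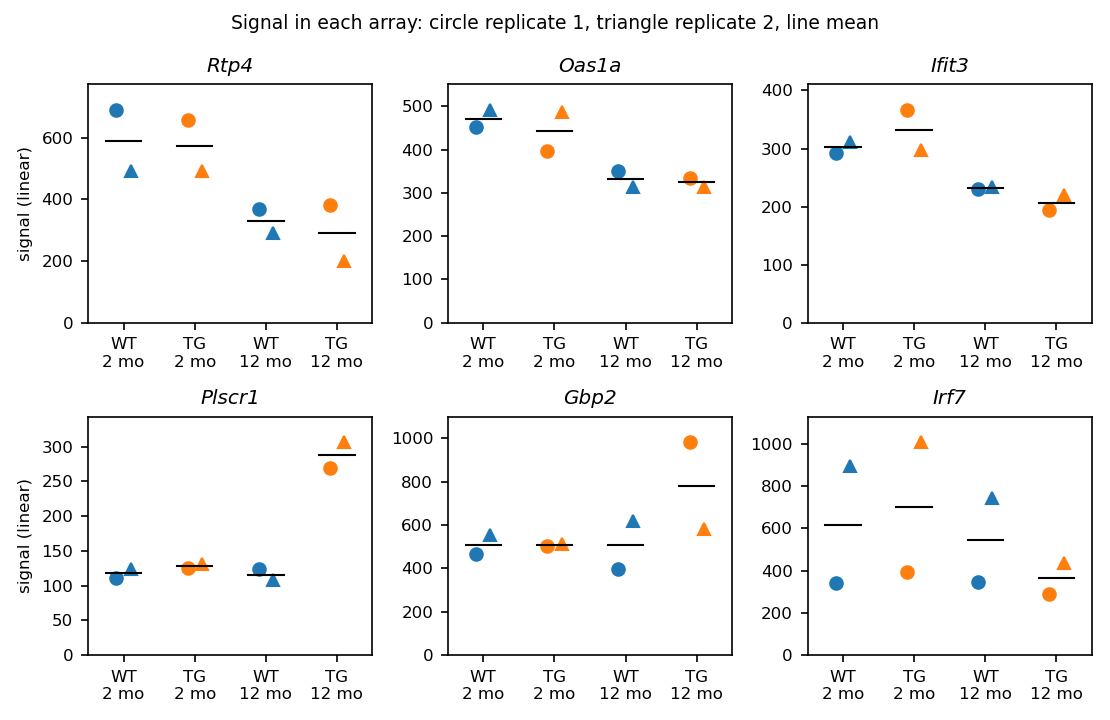
Linear signal (vertical axis, from 0) of 6 genes in the 4 groups of genotype and age (horizontal axis), with circles for replicate 1, triangles for replicate 2 and lines for group means of n = 2. Rtp4, Oas1a and Ifit3 lie lower on all 12-month arrays, Plscr1 is high on both TG 12 months arrays, Gbp2 is high on only the replicate 1 array of that group, and Irf7 separates by replicate number.

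The transcription factors of the list were lower at 12 months in part. Irf9, the DNA-binding subunit of the type I complex, had signals of 536 and 527 in WT and 530 and 446 in TG mice at 2 months, and of 403 and 433 in WT and 390 and 317 in TG mice at 12 months. All older arrays lay below all younger arrays, with differences of -0.34 ± 0.18 and -0.45 ± 0.18. Stat2, its partner, had differences of -0.20 in WT and -0.27 in TG mice. A second, dimmer Stat2 probe set that passed the filter gave -0.15 and -0.89, so the size in TG mice depends on the probe set. Irf1, a factor that responds mostly to type II interferon, was not lower in either genotype in mean level, at 0.10 in WT and 0.11 in TG mice, but it was at -0.11 in WT mice without the WT 2 months replicate 1 array. Usp18, which removes ISG15 from proteins and damps the receptor, had differences of -0.39 and -0.41.

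The 4 nucleic acid sensors differed among themselves. Dhx58, a helicase that tunes the sensors RIG-I and MDA5, had signals of 162 and 173 in WT and 160 and 157 in TG mice at 2 months, and of 150 and 139 in WT and 82.1 and 107 in TG mice at 12 months. The ages did not overlap in either genotype, with differences of -0.19 ± 0.20 in WT and -0.67 ± 0.20 in TG mice. A second, dimmer Dhx58 probe set that passed the filter gave 0.06 and -0.03, so the probe sets disagree. Ifih1 (MDA5) had differences of -0.03 and -0.09, and Rigi (RIG-I) of -0.19 and -0.13. Zbp1, described below, had differences of -0.10 in WT and 0.67 in TG mice.

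Counts over the arrays gave the same picture of the list. In 16 of the 36 genes (44.4%) the older array was the lower one in all 4 pairs of genotype and replicate number, against 8.85% of all genes. In 9 genes (25%) every 12-month array was below every 2-month array, against 1.56% of all genes, and in 0 members was every older array above. These 9 genes were Dhx58, Irf9, Oas1a, Ifit1, Ifit3, Ifi35, Bst2, Xaf1 and Rtp4. When an array is left out, the number of genes with every 12-month array below every 2-month array can only stay or rise. Without the WT 2 months replicate 1 array, 15 members met that condition, against 2.79% of all genes. Without it, 26 members were lower in both genotypes. Replicate 2 alone then stood for WT mice at 2 months against both replicates at 12 months, so differences between replicates enter these counts. Within replicate 2 of WT mice, 26 of 36 members were lower at 12 months and 10 higher (median -0.29). Within replicate 1, 30 were lower and 6 higher (median -0.20). Within a genotype, groups did not overlap with 12 months lower for 17 members in WT (10.9% of all genes) and 18 in TG mice (17.4% of all genes).

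Without the WT 2 months replicate 1 array, again unbalanced by replicate, 4 of the 36 WT age differences had the other sign. Oasl2 was then at -1.01, Oas2 at -0.87, Oas3 at -0.81, Oasl1 at -0.73 and Oas1a at -0.54. Ifit3 was at -0.40, Ifit1 at -0.26, Xaf1 at -0.62, Bst2 at -0.47, Rtp4 at -0.56, Irf9 at -0.32, Stat2 at -0.23, Usp18 at -0.59 and Dhx58 at -0.24. Ifih1 turned from -0.03 to 0.11, and Rigi was at -0.28. The OAS and IFIT genes and Rtp4 thus had lower WT levels at 12 months with and without that array.

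An unadjusted p under 0.05 was reached by 6 members in WT mice, all lower at 12 months (1.53% of all genes), and by 10 in TG mice, 8 lower and 2 higher (4.72% of all genes). With the replicate number as a block the counts were 11 in WT mice (5.17% of all genes) and 16 in TG mice (13.4% of all genes). Again 0 members passed after adjustment. The smallest limma adjusted p of a member with the block was 0.647 in WT and 0.0572 in TG mice. Of all 11189 genes, 0 passed with the block in WT and 21 in TG mice. Without the block the smallest limma adjusted p of a member with age was 0.419 (Plscr1 in TG mice). With 2 arrays against 2, an exact permutation test could not go below p = 0.333 for a single gene. The WT median was -0.37 without the WT 12 months replicate 2 array and -0.29 without the WT 2 months replicate 1 array, in which case 34 of 36 members were lower. It was -0.14 without the WT 2 months replicate 2 array and -0.22 without the WT 12 months replicate 1 array, and 25 of 36 were lower in either case.

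**Figure D3:**
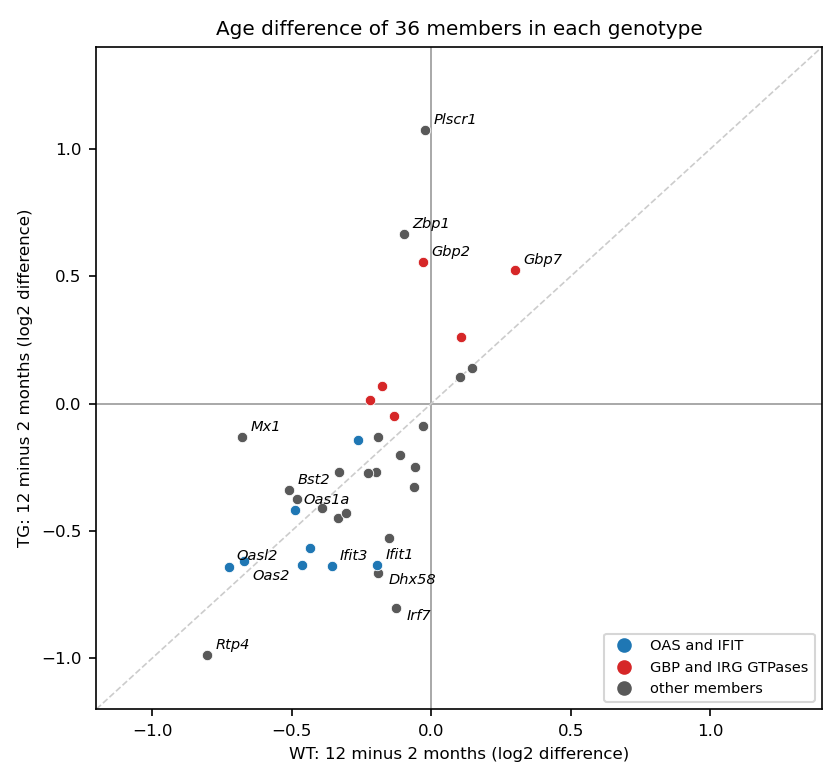
Difference between 12 and 2 months (log2) of each of the 36 tested genes in WT mice (horizontal axis) and TG mice (vertical axis), with OAS and IFIT genes in blue, GBP and IRG GTPases in red, other members in grey and equal differences on the dashed line. Of the 36 points, 27 lie below 0 on both axes, while Plscr1, Zbp1 and Gbp2 lie above 0 for TG and below 0 for WT mice.

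Across the 36 genes the WT and TG age differences correlated with r = 0.637 (Spearman rho = 0.673), against r = 0.174 (rho = 0.064) across all genes tested. Genes are not independent replicates and all values come from the same 8 arrays, so these are descriptions. Gbp7, a GTPase of the guanylate-binding family, went the other way: it was higher at 12 months in all 4 pairs, with signals of 411 and 508 in WT and 598 and 514 in TG mice at 2 months, and of 590 and 542 in WT and 1119 and 575 in TG mice at 12 months. It was the 1 member with that pattern (2.78% of members, 6.66% of all genes). Its differences were 0.30 ± 0.30 and 0.52 ± 0.30, and the TG groups overlapped. The WT difference was 0.15 without the WT 2 months replicate 1 array.

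Cell markers differed with age as well, each in its own way. The 6 plasma cell markers were all higher at 12 months in mean level in both genotypes (medians 0.49 and 0.54), with summed signals of 12478 and 16733 in WT and 12229 and 14016 in TG mice at 2 months and of 16599 and 23254 in WT and 18644 and 24271 in TG mice at 12 months. The 9 T cell markers were all lower at 12 months in WT mice (median -0.28) and 6 of 9 higher in TG mice (0.22). Macrophage and monocyte markers were higher in WT (9 of 11, median 0.27) and lower in TG mice (10 of 11, median -0.25). Neutrophil markers were lower for 8 of 8 in WT (median -0.37) and higher for 5 of 8 in TG mice (0.08). Within replicate 1, however, 7 of 8 neutrophil markers were higher in WT mice (median 0.80), and within replicate 2 all 8 were lower in both genotypes (-1.53 and -0.29). Proliferation markers were higher for 9 of 9 in mean level in both genotypes (0.18 and 0.51), with 9 of 9 higher in replicate 1 (0.45 and 1.10). In replicate 2, 8 of 9 were lower in WT (-0.09) and 6 of 9 in TG mice (-0.07). Markers of plasmacytoid dendritic cells, the main producers of type I interferon, were lower for 5 of 8 in WT (median -0.07) and 6 of 8 in TG mice (-0.60). Their summed signal was 7015 and 7587 in WT and 6268 and 6583 in TG mice at 2 months, and 5981 and 7440 in WT and 3572 and 9508 in TG mice at 12 months. That sum follows a few bright genes more than the list as a whole. How particular each of the 8 markers is to those cells among splenocytes was not checked. On the TG 12 months replicate 2 array Spib was at 5223 and Ly6d at 2977, while Siglech was at 106 and Ccr9 at 34.4.

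Siglech, the surface receptor that defines those cells in mice, had signals of 231 and 170 in WT and 231 and 190 in TG mice at 2 months, and of 148 and 124 in WT and 50.9 and 106 in TG mice at 12 months. It was thus lower on all older arrays. Of the 8 markers of that list, however, 3 were higher at 12 months in WT and 2 in TG mice in mean level. Tcf4 had signals of 1095 and 817 in WT and 855 and 770 in TG mice at 2 months. At 12 months Tcf4 was at 1221 and 1024 in WT and 1042 and 869 in TG mice. No marker of these lists was at 0, which does not show that a cell type was present. In these values even dim genes such as Ifna9 stayed above 0 (1.86 to 5.04). The part of these cell types in the age differences of the interferon-stimulated genes was not tested. The ratio of 3′ to 5′ Gapdh signal, a sign of RNA quality, ran from 1.01 to 1.39 in WT and 1.07 to 1.48 in TG mice at 2 months and from 1.25 to 1.73 in WT and 0.843 to 1.21 in TG mice at 12 months, so it was higher with age in 1 genotype and lower in the other. For Actb the ratio ran from 1.18 to 1.24 in WT and 1.14 to 1.21 in TG mice at 2 months. At 12 months the Actb ratio ran from 1.31 to 1.48 in WT and 1.10 to 1.20 in TG mice.

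The comparison of TG with WT mice at 12 months asks how the list stood once tumours were established. It had no common direction: 22 members were higher and 14 lower in TG mice, with a median of 0.04 against -0.03 over all genes. No member passed the test, as 0% of all genes did (smallest limma adjusted p of a member 0.468). An unadjusted p under 0.05 was reached by 3 members, Plscr1 and Zbp1 higher and Dhx58 lower, against 7.73% of all genes. With the replicate block 5 of the 36 members reached it, against 19.9% of all genes. After adjustment 0 members passed with the block, where 5 of 11189 genes did, and the smallest limma adjusted p of a member was 0.0594. Groups did not overlap for 7 members higher in TG mice (14.3% of all genes) and 4 lower (19.9% of all genes), which is near the background.

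Plscr1, a membrane lipid scramblase with antiviral activity, was the member with the largest difference. Its signals were 124 and 108 in WT and 269 and 306 in TG mice at 12 months, and 111 and 124 in WT and 125 and 131 in TG mice at 2 months. Both TG arrays at 12 months stood above all 6 others. It was 2.30-fold higher in TG than in WT mice at 12 months on the log2(signal + 16) scale (1.20 ± 0.19, limma adjusted p = 0.468). The difference was 1.03 in replicate 1 and 1.38 in replicate 2. A second probe set gave 1.06, and the chosen one is of a type that can bind related transcripts. At 2 months the difference was 0.11 ± 0.19, and the difference of the 2 effects was 1.10 ± 0.27 (limma adjusted p = 1.00).

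Zbp1, a sensor of Z-form nucleic acid that can start cell death, had signals of 138 and 178 in WT and 346 and 217 in TG mice at 12 months. The groups did not overlap, with a difference of 0.75 ± 0.25 (limma adjusted p = 0.590), but it was 1.24 in replicate 1 and 0.26 in replicate 2. Dhx58 was lower in TG mice by the signals given above, with -0.55 ± 0.20 (limma adjusted p = 0.602), -0.76 in replicate 1 and -0.33 in replicate 2. Its other probe set gave -0.12.

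The GTPases of the GBP and IRG families, which attack the vacuoles of intracellular microbes and respond mostly to type II interferon, were all higher in TG mice at 12 months in mean level (6 of 6, median 0.33). That rested in part on single arrays. The replicate 1 arrays gave 6 of 6 higher (median 0.80), and the replicate 2 arrays gave 4 of 6 lower (median -0.06). Without the TG 12 months replicate 1 array the median was -0.02, with 3 of 6 higher. Without the WT 12 months replicate 1 array, the lowest array for Gbp2, Igtp and Irgm2, it was 0.26, with 5 of 6 higher. Gbp2 had signals of 399 and 617 in WT and 982 and 581 in TG mice at 12 months. The groups overlapped, the difference was 0.59 ± 0.29 (limma adjusted p = 0.691), and it was 0.22 without the TG 12 months replicate 1 array and 0.29 without the WT 12 months replicate 1 array. Igtp had signals of 625 and 978 in WT and 1150 and 1014 in TG mice, with a difference of 0.46 ± 0.26, 0.86 in replicate 1 and 0.05 in replicate 2. It was 0.37 without that TG array and 0.14 without that WT array.

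**Figure D4:**
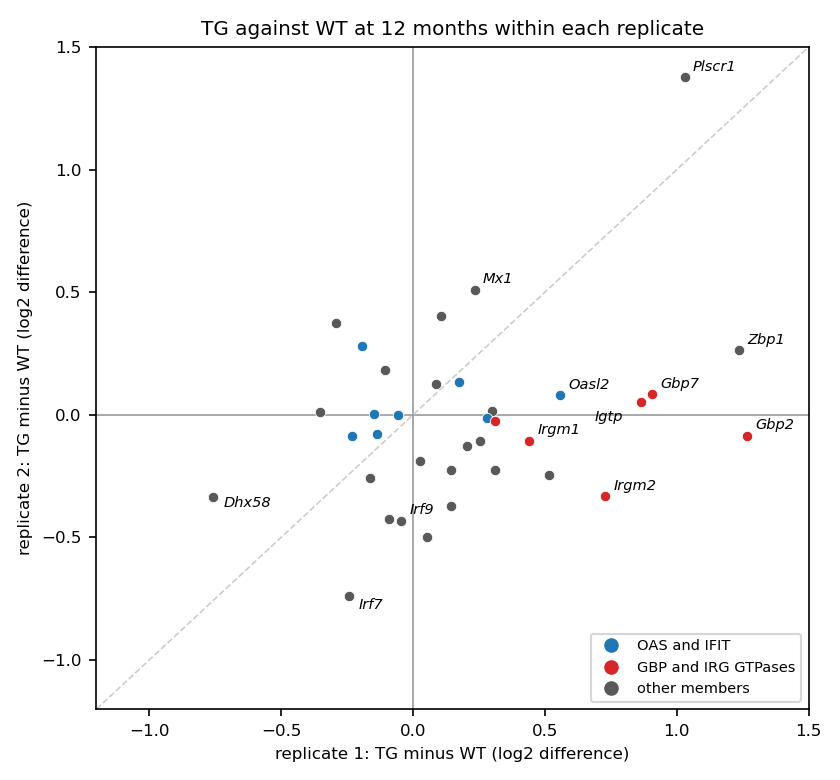
Difference between TG and WT mice at 12 months (log2) of each of the 36 tested genes within replicate 1 (horizontal axis) and within replicate 2 (vertical axis), coloured by gene group, with equal differences on the dashed line. Plscr1 lies high on both axes, at 1.03 and 1.38, whereas the GTPases in red lie above 0 on the replicate 1 axis and at 0.08 or lower on the replicate 2 axis.

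The TG 12 months replicate 1 array differed from its replicate in cell markers too. The T cell list was at a median of 0.72 above the genes' means on that array and at -0.29 on the TG replicate 2 array, against -0.53 and -0.17 in WT mice of that age. The summed T cell signal was 3907 and 5033 in WT and 10251 and 5379 in TG mice at 12 months, and 8 of 9 markers were higher in TG mice in mean level (median 0.70, 1.30 in replicate 1 and 0.09 in replicate 2). The NK cell list was at a median of 0.55 on the TG replicate 1 array and at -0.56 on the TG replicate 2 array. Of its 6 tested markers, 3 were higher and 3 lower in TG than in WT mice at 12 months in mean level. Macrophage and monocyte markers were at -0.57 on the TG 12 months replicate 1 array. B cell markers summed to 12246 there and to 18148 or more on the others. The lowest T cell marker signal on any array was 198 (Cd5, WT 12 months replicate 1), and the part of these cells in the GTPase values was not tested.

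**Figure D5:**
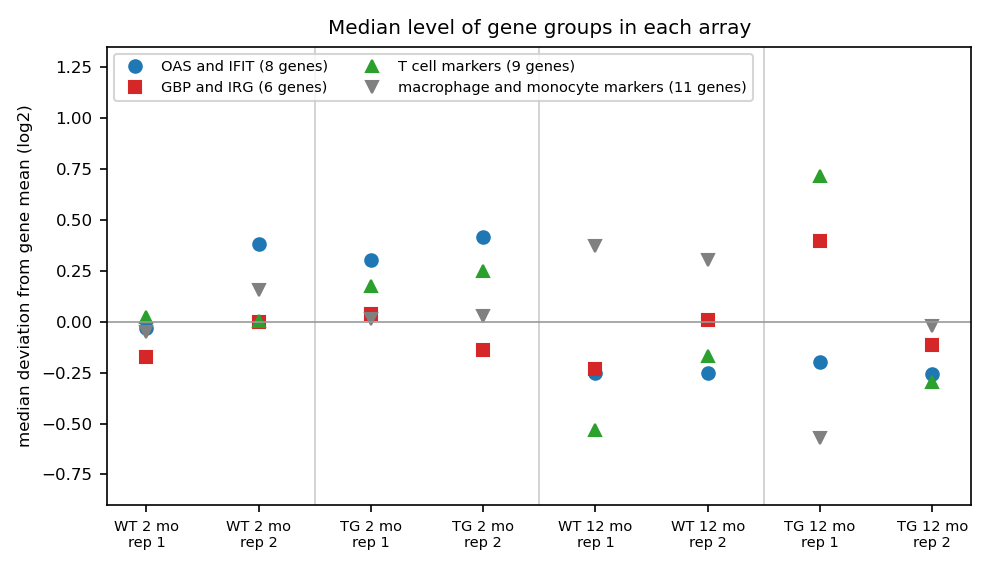
Median deviation from the gene means (log2, vertical axis) of 8 OAS and IFIT genes, 6 GBP and IRG genes, 9 T cell markers and 11 macrophage and monocyte markers on each of the 8 arrays (horizontal axis). On the TG 12 months replicate 1 array the GBP and IRG genes are at 0.40 and the T cell markers at 0.72, while the OAS and IFIT genes are between -0.26 and -0.20 on all 12-month arrays.

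The OAS and IFIT genes were not high on that array. Their median was -0.20 there, beside -0.25, -0.25 and -0.26 on the other 12-month arrays, and at 2 months it was -0.03, 0.38, 0.30 and 0.42, with the low value on the WT replicate 1 array. Between TG and WT mice at 12 months, 4 of these 8 genes were higher and 4 lower, with a median of 0.01. Mx1, a GTPase that blocks virus nucleocapsids, had signals of 58.5 and 45.3 in WT and 71.5 and 71.3 in TG mice at 12 months. Its groups did not overlap at that age, with a difference of 0.37 ± 0.28. At 2 months it was 110 and 76.4 in WT and 103 and 61.2 in TG mice, with a difference of -0.17, or 0.052 without the WT 2 months replicate 1 array. Among members lower in TG mice at 12 months with no overlap were Irf9 (-0.24), Parp14 (-0.21), a mono-ADP-ribosyltransferase, and Ifit3 (-0.16).

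At 2 months, before tumours, 20 members were higher and 16 lower in TG mice, with a median of 0.05 against 0.01 over all genes. No member passed the test or had an unadjusted p under 0.05, as 0% and 0.393% of all genes did. Groups did not overlap for 4 members higher in TG mice (Ifit1, Ifih1, Gbp7 and Plscr1, against 10.1% of all genes) and for Bst2, Dhx58 and Stat2 lower (7.83% of all genes). Ifit1 had the largest of these differences, 0.33 ± 0.18. With the replicate block 0 members had an unadjusted p under 0.05, against 1.69% of all genes. Without the WT 2 months replicate 1 array the median of the list was -0.09, with 24 of 36 members lower in TG mice, and 14 members had the other sign. That leaves replicate 2 alone for WT mice against both TG replicates. Within replicate 2 of both genotypes, 15 members were higher and 21 lower in TG mice (median -0.04). Without that WT array Ifit1 was at 0.26, Ifih1 at 0.36 against 0.22 with it, Gbp7 at 0.12 against 0.27 and Plscr1 at 0.037 against 0.11. Bst2 was then at -0.089, Dhx58 at -0.12 and Stat2 at -0.080. The difference between the 12-month and the 2-month effects had a median of -0.00, with 18 members on each side, and 1 member (Plscr1) had an unadjusted p under 0.05 (1.9% of all genes), with 0 past the test (0% of all genes). That median was 0.16 without the WT 2 months replicate 1 array, and the count at an unadjusted p under 0.05 was 3 of 36 with the replicate block (8.14% of all genes).

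More members passed the test between replicate numbers than in any genotype or age comparison. The former sets 4 arrays against 4, the latter 2 against 2 without the replicate in the model, so the counts are of unlike power. Between replicate 1 and replicate 2, with group in the model, 8 of 36 members passed the test, against 26.3% of all genes, and 12 had an unadjusted p under 0.05, against 40.3%. The share of members was thus near that of all genes and is not read as a trait of the list. Irf7, the factor that amplifies type I interferon production, had signals of 341, 392, 344 and 287 on the replicate 1 arrays of WT and TG mice at 2 and at 12 months, and of 892, 1007, 742 and 437 on the matching replicate 2 arrays. Replicate 1 was lower in every group, and the difference was -1.08 ± 0.13 (limma adjusted p = 0.00241). Rsad2, an enzyme that makes a chain-terminating nucleotide, was lower in replicate 1 by the same test (-0.79 ± 0.24, limma adjusted p = 0.0441), with signals of 1335 to 1889 in replicate 1 and 1964 to 4557 in replicate 2. Samhd1 (-0.74), Isg20 (-0.67), Oas2 (-0.66) and Parp9 (-0.31) also were lower and Rtp4 (0.52) and Gbp3 (0.38) higher in replicate 1. The summed signal of 8 neutrophil markers was lower in replicate 1 than in replicate 2 in 3 of 4 groups (6408 against 20646 and 10059 against 5741 in WT, 7648 against 24710 and 9216 against 20844 in TG mice, at 2 and 12 months), and all 8 were lower in replicate 1 in mean level. All 9 B cell markers and all 5 erythroid markers were lower as well, of which 3 and 2 passed the test. The 3′ to 5′ Gapdh ratio given above was lower in replicate 1 in all 4 groups. The Actb ratio went the other way and was higher in replicate 1 in all 4 groups. The part of these in the differences between replicates was not tested. The count of members past the test was 3 without the WT 2 months replicate 1 array, when 10.6% of all genes passed, and 4 without the TG 2 months replicate 1 array, when 15.6% did.

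Upstream of these genes, the interferons themselves were dim. Of 18 interferon genes listed, 9 had a probe set of their own and 0 passed the brightness filter, which dropped probe sets with a mean signal under 45.3. Ifnb1 signals ran from 12.9 to 46.4 and Ifng signals from 10.9 to 40.3. Of 10 receptor and JAK-STAT genes, 9 were tested. In TG against WT mice at 12 months 2 were higher and 7 lower, and 0 passed the test in any genotype or age comparison. Jak1, a kinase shared by the receptors, was at 0.38 ± 0.21, and Ifnlr1, the type III receptor, at 0.19 ± 0.38 with opposite signs in the replicates (1.03 and -0.65). Ifngr1, the type II receptor, was at -0.29 and Il10rb at -0.19.

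Of 16 genes that sense nucleic acid upstream of interferon, 14 were tested, with 4 higher and 10 lower in TG mice at 12 months and 0 past the test. Tlr3, the endosomal receptor for double-stranded RNA, had signals of 172 and 209 in WT and 83.6 and 56.7 in TG mice at 12 months, and of 166 and 128 in WT and 166 and 115 in TG mice at 2 months. Both TG arrays at 12 months were below all others, and the difference was -1.27 ± 0.26 (limma adjusted p = 0.561). Irf5, which acts downstream of Toll-like receptors, was at -0.41, Cgas at 0.19 and Myd88 at 0.11. Of 11 negative regulators, 10 were tested, 5 higher and 5 lower, with 0 past the test. Socs3, an inhibitor of JAK kinases, had signals of 275 and 260 in WT and 1394 and 247 in TG mice at 12 months, so that 1 array was high. Its difference was 1.10 ± 0.63 with both TG arrays and -0.11 without the TG 12 months replicate 1 array. Socs1 was at 0.48, Pias1 at -0.53 and Irf2 at -0.35.

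A further list of 66 interferon-stimulated genes that holds none of the 41 had 53 tested genes. This list too was chosen with earlier results of these data known and was read on the same 8 arrays, so it is no separate test. With age it leaned the same way in mean levels: 42 of 53 were lower at 12 months in WT mice (median -0.12) and 38 of 53 in TG mice (median -0.22). Groups did not overlap, 12 months lower, for 16 (10.9% of all genes) and 17 of them (17.4% of all genes). At 12 months 24 were higher and 29 lower in TG mice. The genes with the smallest p-values in that comparison were Ifit1bl1 at 0.99 ± 0.30 and Eif2ak2, the kinase PKR that stops translation, at 0.57 ± 0.22, both higher, and Ifitm1, a membrane protein that hinders virus entry, at -0.62 ± 0.24 and Helz2 at -0.42 ± 0.17, both lower. None of the 53 passed the test in a genotype or age comparison.

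Members with and without ISRE letters were both lower at 12 months by their medians. The 16 tested genes with the letters had median age differences of -0.19 in WT and -0.20 in TG mice, and the 12 with a window but without them -0.25 and -0.32. These medians are descriptions of a list with a single RefSeq window or few per gene, and no difference between them was tested.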

How the data were processed

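Total RNA of splenocytes, 8 samples in 4 groups of 2 by the labels' titles, was hybridised to Affymetrix mouse arrays. The deposited values are linear probe set intensities, made with GCOS 1.4 and MAS5 per the submitters' processing notes, with 1 scale factor per array seen in the values. The number of arrays limits the precision.

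From these, log2(signal + 16) was taken, control probe sets were dropped, and probe sets with a mean under the median were filtered out (22519 of 45037 passed). Of these, 19307 had 1 gene symbol, and the brightest stood for each of 11189 genes. The model of 4 group means was fitted with limma 3.58.1 in R 4.3.3 (lmFit, eBayes with intensity trend, 4 residual degrees of freedom). P-values are 2-sided, with Benjamini-Hochberg adjustment over all 11189 genes and a threshold of 0.05. The fit was tested on simulated data. For replicate 1 against 2, the replicate number was added to the groups.

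Replicate numbers pair the samples: across genes, the replicate 1 minus 2 differences of any 2 groups correlated, with r between 0.464 and 0.654 (6 values). The main fit has no block, so the adjusted p-values of single genes for genotype and age leave this pairing out. Blocked values stand beside a result only where a call or count moved, or as the smallest adjusted p.

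Members and gene lists were chosen with earlier results of these data known. Genes named are members past a test, then those with the smallest p among members whose groups do not overlap (for each comparison and direction, with no overlap condition for the difference of effects), the smallest p at 12 months in each role group, and up to 2 genes per direction from each pathway list. Further members and Siglech were named after their values were seen. Promoters are RefSeq sequences on GRCm38.p6. Another 17 settings were tried: the replicate block, other pseudocounts and filters, averaged probe sets per gene, quantile and cyclic loess normalization, no intensity trend, and each of the 8 arrays left out.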

Additional observations from a re-analysis of the deposited data

Results flagged for a closer look

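In 3 members the TG minus WT difference had 1 sign in both replicates at 12 months and the opposite sign in both at 2 months. The share of all genes with that pattern was not counted, so the 3 are not read as a trait of the list. Whether the effects differ was tested in the fit across all genes and no member passed (limma adjusted p = 1.00 for each of the 3). For Ifit1 the difference of the effects was -0.44 (log2), from -0.14 and -0.08 in replicates 1 and 2 at 12 months and 0.38 and 0.28 at 2 months. For Irf7 it was -0.68, from -0.24 and -0.74 at 12 months and 0.19 and 0.17 at 2 months. For Mx1 it was 0.55, from 0.23 and 0.51 at 12 months and -0.09 and -0.26 at 2 months. For Ifit1 and Irf7 the lowest 2-month signal was on the array labelled WT 2 months replicate 1. Groups of 2 arrays are too small for a rule on outlying samples.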

How the results depend on the processing

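Under all 17 settings 0 members passed the test in the 5 genotype and age comparisons. With the replicate block the number at an unadjusted p under 0.05 was 5, 0, 3, 11 and 16 for TG against WT at 12 months, at 2 months, their difference, and age in WT and in TG mice. Without the block it was 3, 0, 1, 6 and 10. Of all genes 19.9%, 1.69%, 8.14%, 5.17% and 13.4% reached that p with the block. The block changed no other call of a member. The counts of members lower at 12 months in both genotypes and of members with every older array below every younger one were recomputed under the settings as alternatives added after the data were seen. The former was 26 to 28 under the settings that kept all arrays and 22 to 27 with each array left out. The latter was 10 to 15 with each array left out, the 15 without the WT 2 months replicate 1 array (2.79% of all genes). The latter count can only stay or rise when an array is left out, so that range does not test it. Leaving out each array in turn gave medians of -0.37 to -0.14 for age in WT mice, -0.28 to -0.26 in TG mice, 0.02 to 0.14 for TG against WT at 12 months, -0.086 to 0.14 at 2 months and -0.10 to 0.16 for the difference of the effects. Between replicates, 3 to 10 members passed with an array left out (10.6% to 24.1% of all genes), 4 with no filter on dim probe sets and 4 without the intensity trend, against 8. Signs turned at 12 months for Ifnlr1 (range -0.31 to 0.69), Usp18 (-0.17 to 0.25), Socs3 (-0.11 to 2.32), Ifngr1 (-0.64 to 0.051) and Il10rb (-0.42 to 0.039). Ifnlr1 was -0.15 and Usp18 -0.02 without the WT 12 months replicate 1 array. Without the TG 12 months replicate 2 array Socs3 was at 2.32 with a limma adjusted p of 0.0286, the lone array being assumed to vary like the other groups. The cause of these changes was not tested. Signal over background was not given with the values, so dim genes such as Mx2 and the interferons have no stated detection limit.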

Other observations

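Of the 36 tested members, 13 had several probe sets above the brightness filter, and these did not always give 1 direction. Signs differed between them for 3 members for TG against WT at 12 months (Ifi35, Rigi and Rsad2), 4 at 2 months (Plscr1, Rigi, Stat2 and Zbp1), 5 for age in WT mice (Dhx58, Gbp2, Parp14, Plscr1 and Rigi) and 1 for age in TG mice (Zbp1). For Zbp1 in TG mice the 12 minus 2 months difference was 0.67 by the brighter probe set and -0.24 by the other, while both were above 0 for TG against WT at 12 months (0.75 and 0.48). Gbp2 and Gbp7 had a second probe set with like values in that comparison, 0.54 beside 0.59 and 0.55 beside 0.49.

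The spread between replicates was about that of other genes: the pooled standard deviation within groups had a median of 0.26 (log2) over the members and 0.25 over all genes tested, and ran from 0.08 to 0.80 among members. The widest ranges over the 8 arrays were those of Rsad2 (1.76), Irf7 (1.75) and Rtp4 (1.70).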
